A study of Rattus norvegicus with 12 samples.

Results

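The 45 genes described here encode surface proteins, adaptors and enzymes of leukocytes, together with the proteins that load peptides onto MHC molecules and present them. Each gene was taken as the probe set whose annotated symbol is its own, and where several probe sets carried the symbol, the probe set with the highest mean over the 12 arrays was used. Of the 45 genes, 43 were measured, among 10411 genes with a symbol and 15866 probe sets in all, and Itgb2 and Cd163 had no probe set. By role, 11 of the 43 are pan-leukocyte genes, 5 T cell genes, 7 myeloid genes, 4 Fc receptors and adaptors, 3 subunits of complement C1q, 3 chemokine genes (a pair of ligands and a receptor), 3 genes of MHC class I and peptide transport and 7 genes of MHC class II.

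Total RNA of the whole pancreas of adult male Wistar rats was hybridized to 12 rat expression arrays, 3 in each of 4 groups, each hybridized with the combined RNA of 3 rats. Diabetic treated (DT) rats had received streptozotocin, a toxin taken up by beta cells, and then drank sodium tungstate, at 0.7 g/L for 1 week and at 2 g/L for the next 4 to 5 weeks. This schedule is that of the labels, and the study's methods describe it differently. Diabetic untreated (DU) rats had received streptozotocin and no tungstate. Healthy treated (HT) rats drank tungstate on the same schedule without streptozotocin, and healthy untreated (HU) rats received neither, both untreated groups being kept for 5 to 6 weeks. The replicates are therefore pools, and a p-value covers only the spread between them. Expression is given on the log2 scale of RMA, the method by which the authors summarized the probes of each probe set, so that a difference of 1 is a 2-fold change. Pools are numbered 1 to 3 within a group (DT1, DT2 and DT3), and values are listed in that order.

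The pancreas is mainly acinar tissue that secretes digestive enzymes, with scattered endocrine islets, and its leukocytes are mostly resident macrophages and dendritic cells with some lymphocytes. Macrophages, dendritic cells and B cells carry MHC class II, which presents peptides of ingested proteins to CD4 T cells, whereas nearly all cells carry MHC class I, which presents peptides of their own proteins to CD8 T cells. Interferon gamma raises the expression of both classes. The tissue matched its label: Cpa1, a carboxypeptidase of acinar cells, lay between 14.19 and 14.39 on the 12 arrays, and Ins2, an insulin gene, was detected at 8.26 to 13.47. Ptprc, the CD45 antigen that defines leukocytes, lay between 4.83 and 5.62. In RNA of a whole organ, fewer leukocytes and less RNA per leukocyte cannot be told apart.

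The 3 genes with the widest range over the arrays belonged to MHC class II, whose promoters are known to share an X box, bound by RFX proteins, and a Y box with the letters CCAAT, bound by NF-Y. Promoters of 31 of the 45 genes were found in the RefSeq table of the GRCr8 assembly, and the 250 bases before the start were searched on both strands. CCAAT was present in 6 of 6 class II genes in the table (RT1-DMb was not in it), in 14 of the 31 genes overall (45.2%) and in 34.0% of all 33469 promoters. TAGCAAC, a core of the X box that was added after the sequences had been read, was present in 3 of the 6 class II genes (Cd74, RT1-Da and RT1-Db1), in 4 of the 31 genes overall (12.9%), the other being Tap2, and in 2.88% of all promoters. The promoters of the 3 class II genes with the largest range over the arrays and of B2m, the class I gene with the largest range, are shown. Matches to CCAAT (read ATTGG on the other strand) and to TAGCAAC are in capitals, written from 5′ to 3′ on the strand of the gene.
Cd74, chr18:56526956-56527205, plus strand: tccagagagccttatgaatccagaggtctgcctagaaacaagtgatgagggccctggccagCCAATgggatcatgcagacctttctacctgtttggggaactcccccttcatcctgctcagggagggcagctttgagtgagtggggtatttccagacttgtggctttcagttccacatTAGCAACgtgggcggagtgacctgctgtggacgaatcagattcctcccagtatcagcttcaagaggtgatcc
RT1-Da, chr20:4515165-4515414, plus strand: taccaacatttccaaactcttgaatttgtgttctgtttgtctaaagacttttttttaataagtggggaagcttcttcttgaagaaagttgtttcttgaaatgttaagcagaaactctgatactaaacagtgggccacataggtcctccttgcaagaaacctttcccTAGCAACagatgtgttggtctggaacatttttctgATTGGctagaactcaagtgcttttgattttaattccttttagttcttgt
RT1-Bb, chr20:4604119-4604368, minus strand: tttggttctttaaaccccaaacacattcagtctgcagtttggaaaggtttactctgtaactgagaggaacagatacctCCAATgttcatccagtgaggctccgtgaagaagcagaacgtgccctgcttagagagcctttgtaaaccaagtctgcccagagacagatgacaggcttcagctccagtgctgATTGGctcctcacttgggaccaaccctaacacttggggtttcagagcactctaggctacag
B2m, chr3:129549080-129549329, plus strand: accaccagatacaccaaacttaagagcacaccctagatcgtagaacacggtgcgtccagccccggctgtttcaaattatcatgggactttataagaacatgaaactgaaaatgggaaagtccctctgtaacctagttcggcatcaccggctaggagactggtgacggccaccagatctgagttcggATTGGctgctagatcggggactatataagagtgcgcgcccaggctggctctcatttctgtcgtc
RT1-Da held TAGCAAC 84 bases and CCAAT 49 bases before its start, and Cd74 held them at 72 and 189 bases. In RT1-Da CCAAT, read on the other strand, lay between TAGCAAC and the start. In Cd74 it lay in the opposite orientation and farther from the start than TAGCAAC. Whether a CCAAT match is the Y box was not tested. RT1-Bb held CCAAT at 172 and at 61 bases, and B2m held it at 64 bases. The interferon response element, searched on both strands by its consensus, was present in the promoters of all 3 class I genes (B2m, Tap1 and Tap2), in 6 of the 31 genes and in 3.41% of all promoters. GAGGAAGT, a site for the myeloid factor PU.1, was present in 5 of the 31 genes (Cd37, Cd53, Vav1, Ctss and Fcgr3a) and in 2.04% of all promoters. TTCNNNGAA, the site of STAT factors, was present in 2 of the 31 genes (Itgam and C1qa) and in 7.67% of all promoters. A match in these letters describes the sequence only.

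None of the 43 genes passed the test in any comparison, and the differences that follow are given as values with their errors. In limma's test with Benjamini-Hochberg adjustment over 15866 probe sets, 0 of 43 genes passed an adjusted p of 0.05 in DT vs. DU, where 1.12% of all probe sets passed, and 0 of 43 passed in DU vs. HU (3.2% of all), DT vs. HU (1.32%) and HT vs. HU (0.0063%). The interaction, that is DT vs. DU minus HT vs. HU, was passed by 0 of 43 genes and by 0.422% of all probe sets. A B-statistic above 0, the criterion of the study, was also reached by 0 of 43 genes in each of these 5 contrasts, against 1.05% of all probe sets in DT vs. DU, 1.82% in DU vs. HU, 1.18% in DT vs. HU, 0% in HT vs. HU and 0.58% in the interaction. At an unadjusted p under 0.05 there were 5 genes in DT vs. DU (9.89% of all probe sets), 3 in DU vs. HU (20.2%), 6 in DT vs. HU (16.6%), 1 in HT vs. HU (5.41%) and 3 in the interaction (8.75%). The smallest adjusted p of any gene in DT vs. DU was 0.339 (limma), for Ccl2. The standard error of a difference had a median of 0.196 over the 43 genes and of 0.103 over all probe sets, and the 95% interval of a difference reached 0.42 to either side at the median.

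Pools of the same group differed more for these genes than for most of the array. The SD between pools of a group had a median of 0.294 over the 43 genes and of 0.128 over all probe sets, and 27 of the 43 genes were among the 10% of probe sets with the largest SD. The largest was that of RT1-Bb, at 0.809. Not every gene was variable: 7 of the 43, such as Aif1, a macrophage protein, and Vav1, a signalling protein of leukocytes, lay below the median SD of all probe sets. The DT group had the widest range of the 4 groups for 23 of 43 genes, against 36.4% of all probe sets. The median range over the 43 genes was 0.68 in DT, 0.36 in DU, 0.29 in HT and 0.52 in HU pools, against 0.24, 0.18, 0.21 and 0.19 over all probe sets.

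**Figure D1:**
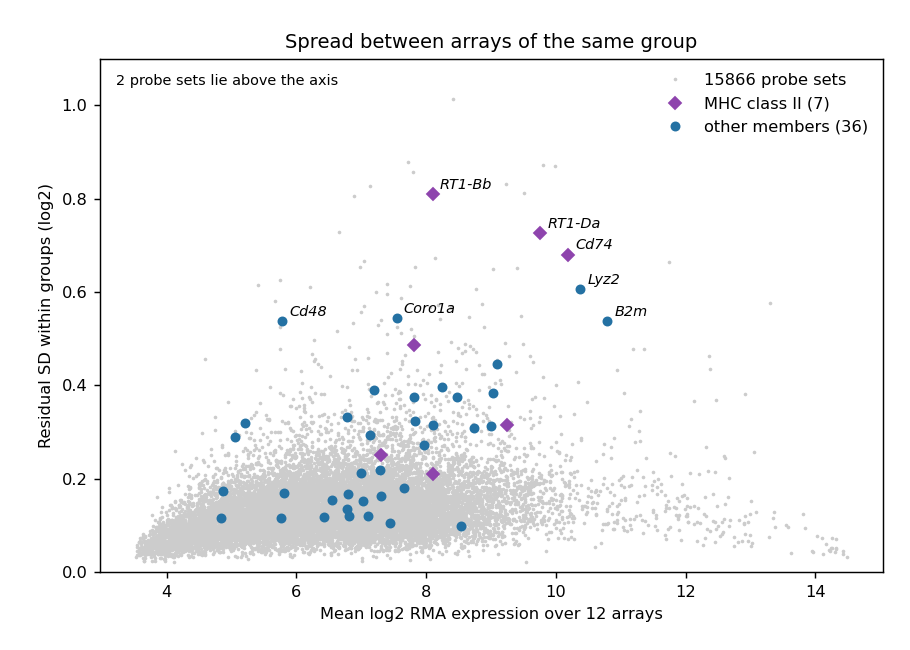
SD of the log2 values between pools of the same group (y axis, from the fit of 4 group means) against the mean log2 expression over 12 arrays (x axis), with grey dots for 15866 probe sets, purple diamonds for the 7 MHC class II genes and blue circles for the other 36 genes. RT1-Bb lies highest of the 43 at 0.809, and 2 probe sets lie above the axis.

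The 3 DT pools were far apart for most genes. DT1 was the lowest of the DT pools for 35 of 43 genes (32.1% of all probe sets) and DT3 the highest for 35 of 43 (31.4%). DT1 was also the lowest of all 12 arrays for 24 of the 43 genes (1544 of 15866 probe sets), whereas DT3 was the highest of 12 for 8 (1350 of 15866). The median deviation of the 43 genes from their 12-array means was -0.38 in DT1, -0.17 in DT2 and 0.23 in DT3. In the other groups it was 0.13, 0.08 and -0.15 in DU, 0.17, 0.02 and 0.01 in HT and 0.04, -0.18 and 0.32 in HU pools. HU3 was the highest of the HU pools for 32 of 43 genes (37.3% of all probe sets) and the highest of all 12 arrays for 14 (1968 of 15866 probe sets). DU3 was the lowest of the DU pools for 36 (36.5% of all).

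**Figure D2:**
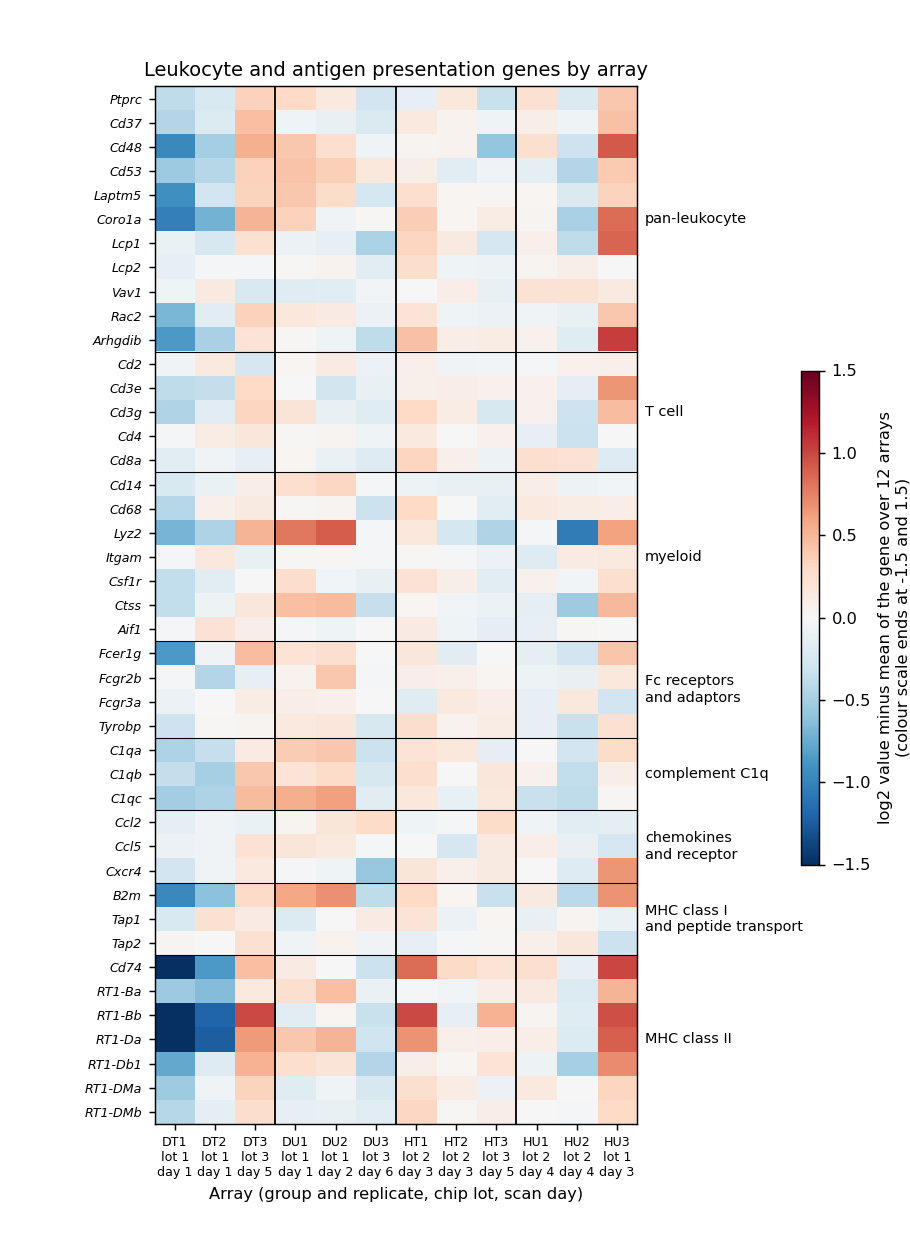
Log2 expression of the 43 genes (rows, by role) on the 12 arrays (columns, with chip lot and scan day), shown as the difference from the mean of each gene over the arrays. DT1 is below the mean for 42 of 43 genes and DT3 above it for 36, with the darkest colours in MHC class II.

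DT3 came from another chip lot and scan day than DT1 and DT2. DT1 and DT2 were scanned on the same day as DU1, scan day 1, and belonged with DU1, DU2 and HU3 to chip lot 1, while DT3, DU3 and HT3 belonged to chip lot 3. Within scan day 1, the mean of DT1 and DT2 differed from DU1 by a median of -0.42 over the 43 genes, with 36 below 0. Within chip lot 1, the mean of DT1 and DT2 differed from that of DU1 and DU2 by -0.38, with 37 of 43 below 0. Within chip lot 3, DT3 differed from DU3 by 0.44, with 6 of 43 below 0. At the median, DT pools lay below DU pools in lot 1 and above the DU pool in lot 3. The lot and the rats of those pools cannot be told apart, since lot 3 held 1 DT pool and 1 DU pool.

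**Figure D3:**
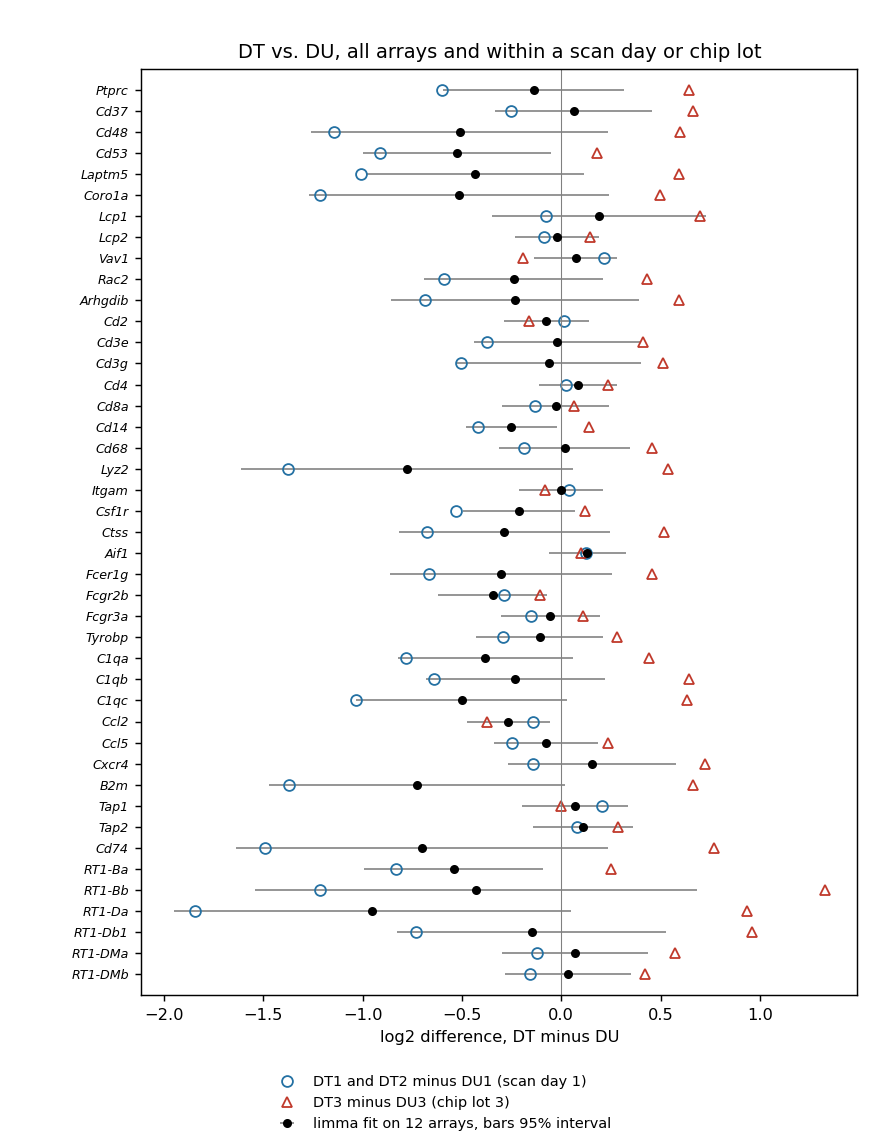
Difference between DT and DU pools in log2 expression (x axis) for each of the 43 genes (y axis), with black dots for the fit on all arrays and bars for its 95% interval, open blue circles for DT1 and DT2 minus DU1 and open red triangles for DT3 minus DU3. The circles lie below 0 for 36 genes and the triangles for 6.

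MHC class II had the largest median deviations of any role, in DT1 and HU3. Over its 7 genes the median deviation from the 12-array mean was -0.77 in DT1, -0.65 in DT2 and 0.45 in DT3, against 0.13, 0.03 and -0.30 in DU, 0.31, 0.02 and 0.10 in HT and 0.10, -0.18 and 0.70 in HU pools. RT1-Da, the alpha chain of RT1-D, the rat counterpart of HLA-DR, had 8.12, 8.52 and 10.39 in DT, 10.16, 10.27 and 9.46 in DU, 10.43, 9.83 and 9.86 in HT and 9.85, 9.56 and 10.65 in HU pools. DT1 and DT2 were below all other pools, while DT3 was above the 3 DU pools, so that the groups overlapped. In DT vs. DU its log2 fold change was -0.95 ± 0.46 (SE, adjusted p = 0.535) by limma, and in DT vs. HU it was -1.01 ± 0.46 (SE, adjusted p = 0.295). The result of leaving out a pool depended on the pool. Without DT3, the highest DT pool for RT1-Da, the log2 fold change in DT vs. DU was -1.64 (adjusted p = 0.0188, limma), and RT1-Da was the only one of the 43 genes that passed, as did 0.693% of all probe sets downwards. Without DT1, the lowest, it was -0.50 (adjusted p = 0.795, limma), and 0 of 43 genes passed. At an unadjusted p under 0.05 there was 1 gene, against 9.8% of all probe sets.

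Cd74, the invariant chain that guides class II molecules to endosomes, had 8.32, 9.32 and 10.63 in DT, 10.31, 10.19 and 9.87 in DU, 11.03, 10.47 and 10.39 in HT and 10.43, 10.06 and 11.19 in HU pools. DT1 was the lowest of the 12 pools and HU3 the highest. Its log2 fold change was -1.13 ± 0.43 (SE, adjusted p = 0.216) in DT vs. HU, the smallest adjusted p of the 43 genes in that contrast, and -0.70 ± 0.43 (SE, adjusted p = 0.676) in DT vs. DU (limma). RT1-Bb, the beta chain of RT1-B, the counterpart of HLA-DQ, had 6.56, 6.90 and 9.10 in DT, 7.95, 8.14 and 7.77 in DU, 9.10, 7.97 and 8.62 in HT and 8.14, 7.92 and 9.07 in HU pools. DT3, HT1 and HU3 were the highest of the 12 pools, and DT1 and DT2 the lowest. In DT vs. DU the difference of RT1-Bb was -0.43 ± 0.52 (SE, adjusted p = 0.876) by limma. Without DT3, Cd74 (-1.74, adjusted p = 0.0193), RT1-Bb (-1.65, adjusted p = 0.0239) and RT1-Da (-1.70, adjusted p = 0.0169) passed in DT vs. HU (limma), where 1.06% of all probe sets passed downwards. Without DT1, their log2 fold changes were -0.58 (adjusted p = 0.49), -0.38 (adjusted p = 0.768) and -0.57 (adjusted p = 0.599) by limma. In that fit 0 of 43 genes passed, and 1 had an unadjusted p under 0.05, against 14.4% of all probe sets.

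Of the other class II genes, RT1-Ba, the alpha chain of RT1-B, differed in DT vs. DU by -0.54 ± 0.21 (SE, adjusted p = 0.383), and RT1-Db1, the beta chain of RT1-D, by -0.15 ± 0.31 (SE, adjusted p = 0.94) (limma). RT1-DMa and RT1-DMb form the DM heterodimer that exchanges the invariant chain peptide for antigen, and their differences were 0.07 ± 0.17 (SE, adjusted p = 0.947) and 0.03 ± 0.15 (SE, adjusted p = 0.978). In DU vs. HU, all 3 DU pools of RT1-DMa and RT1-DMb lay below the 3 HU pools, with log2 fold changes of -0.32 ± 0.17 (SE, adjusted p = 0.321) and -0.22 ± 0.15 (SE, adjusted p = 0.427) by limma. These were 2 of 4 such genes of 43, the others being Vav1 and Cd68, against 16.9% of all probe sets.

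**Figure D4:**
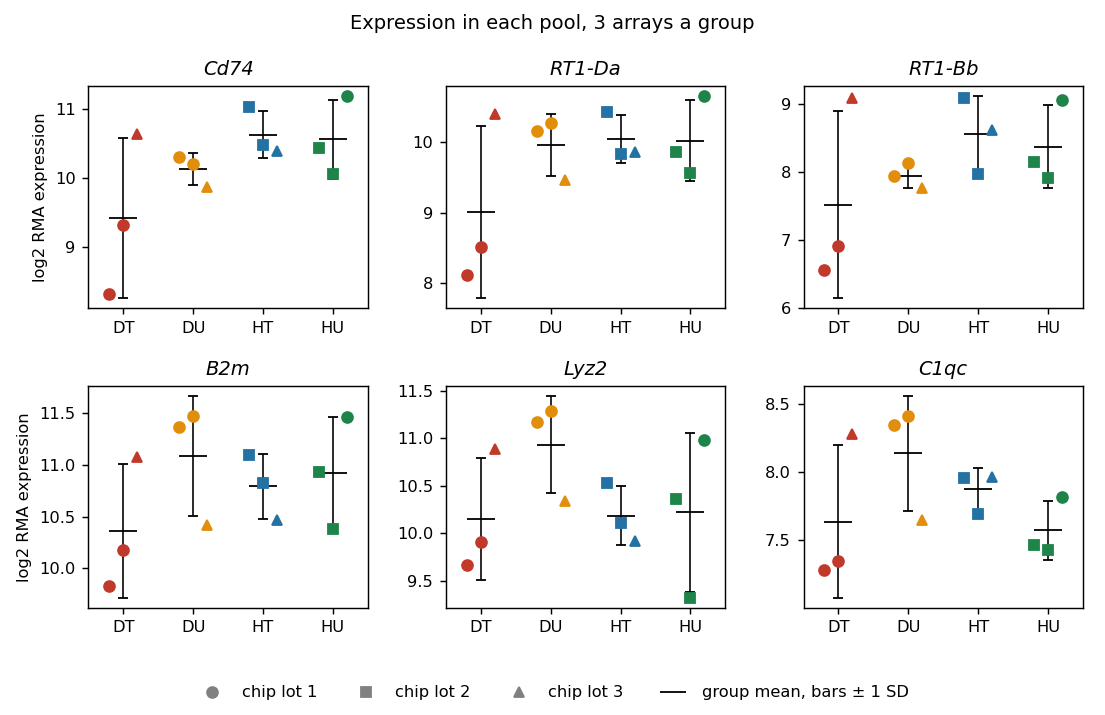
Log2 RMA expression (y axis) of Cd74, RT1-Da, RT1-Bb, B2m, Lyz2 and C1qc in the 3 pools of DT, DU, HT and HU animals (x axis), with the shape of the point giving the chip lot and the black line and bars the group mean ± 1 SD. In each gene DT3 stands above DT1 and DT2, and for RT1-Da DT1 and DT2 stand at 8.12 and 8.52 and DT3 at 10.39.

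Among the class I genes, B2m had the widest range over the arrays. B2m, the light chain of class I molecules, had 9.83, 10.18 and 11.08 in DT, 11.37, 11.47 and 10.42 in DU, 11.09, 10.82 and 10.46 in HT and 10.93, 10.38 and 11.46 in HU pools. DT1 and DT2 were the lowest of the 12 pools, and HU2 and DU3 came next. The log2 fold change of B2m was -0.73 ± 0.35 (SE, adjusted p = 0.521) in DT vs. DU and 0.16 ± 0.35 (SE, adjusted p = 0.834) in DU vs. HU (limma). Tap1, a subunit of the transporter that carries peptides into the endoplasmic reticulum, had 6.56, 7.02 and 6.91 in DT, 6.58, 6.79 and 6.91 in DU, 6.99, 6.71 and 6.82 in HT and 6.68, 6.83 and 6.70 in HU pools. Tap2, its partner, had 6.58, 6.54 and 6.77 in DT, 6.48, 6.59 and 6.48 in DU, 6.42, 6.52 and 6.56 in HT and 6.61, 6.72 and 6.21 in HU pools. Both differed by less than 0.12 in DT vs. DU, at 0.07 and 0.11, with overlapping pools. DT1 was the lowest of the 12 pools for Tap1, and the second probe set of Tap1 had 6.21, 6.34 and 6.73 in the DT pools.

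C1q genes, made mainly by macrophages and encoding the recognition molecule of the classical complement pathway, varied in both diabetic groups. C1qc had 7.28, 7.35 and 8.28 in DT, 8.35, 8.42 and 7.65 in DU, 7.96, 7.69 and 7.97 in HT and 7.47, 7.43 and 7.82 in HU pools. DT3 stood with DU1 and DU2, and DT1 and DT2 stood below all healthy pools. For C1qc the log2 fold change was -0.50 ± 0.25 (SE, adjusted p = 0.54) in DT vs. DU and 0.57 ± 0.25 (SE, adjusted p = 0.217) in DU vs. HU by limma. C1qa had 8.28, 8.40 and 8.87 in DT, 9.12, 9.15 and 8.43 in DU, 8.95, 8.91 and 8.60 in HT and 8.75, 8.46 and 9.02 in HU pools, with a log2 fold change of -0.38 ± 0.20 (SE, adjusted p = 0.595) in DT vs. DU. C1qb had 7.74, 7.61 and 8.51 in DT, 8.31, 8.37 and 7.86 in DU, 8.35, 8.10 and 8.28 in HT and 8.17, 7.74 and 8.19 in HU pools, with a log2 fold change of -0.23 ± 0.21 (SE, adjusted p = 0.816) in that comparison (limma). The medians of the 3 C1q genes were -0.78 for DT1 and DT2 minus DU1 in scan day 1 and 0.63 for DT3 minus DU3 in chip lot 3.

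DT1 and HU3 were also the extremes of the most variable pan-leukocyte genes. Coro1a, the actin-binding protein coronin of leukocytes, had 6.52, 6.83 and 8.06 in DT, 7.89, 7.50 and 7.56 in DU, 7.91, 7.57 and 7.65 in HT and 7.59, 7.06 and 8.39 in HU pools. Cd48, a ligand of the NK cell receptor CD244, had 4.82, 5.27 and 6.31 in DT, 6.19, 6.03 and 5.71 in DU, 5.82, 5.83 and 5.20 in HT and 6.02, 5.47 and 6.70 in HU pools. Arhgdib had 8.24, 8.61 and 9.30 in DT, 9.11, 9.03 and 8.71 in DU, 9.53, 9.19 and 9.21 in HT and 9.16, 8.91 and 10.13 in HU pools. In these 3 genes DT1 was the lowest and HU3 the highest of the 12 pools. DT vs. DU gave log2 fold changes of -0.51 ± 0.35 (SE, adjusted p = 0.722), -0.51 ± 0.35 (SE, adjusted p = 0.719) and -0.23 ± 0.29 (SE, adjusted p = 0.883) by limma. Of the 11 pan-leukocyte genes, 8 were below 0 in DT vs. DU, with a median of -0.23, and the values ran from -0.52 for Cd53, a tetraspanin, to 0.19 for Lcp1, an actin bundler. The remaining genes of this role are Ptprc, Cd37, Laptm5, Lcp2, Vav1 and Rac2. Vav1 was singled out after its values were seen, because it had the smallest adjusted p of the 43 genes in DU vs. HU, with 5.69, 5.89 and 5.52 in DT, 5.57, 5.59 and 5.72 in DU, 5.76, 5.85 and 5.64 in HT and 5.97, 5.97 and 5.89 in HU pools. All 3 DU pools and all 3 HT pools were below the 3 HU pools, by -0.32 ± 0.10 (SE, adjusted p = 0.091) and -0.19 ± 0.10 (SE, adjusted p = 0.871) in the limma fit.

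Of the myeloid genes, Lyz2 and Ctss were high in DU1 and DU2. Lyz2, the lysozyme of macrophages and neutrophils, had 9.67, 9.91 and 10.88 in DT, 11.17, 11.28 and 10.35 in DU, 10.53, 10.11 and 9.92 in HT and 10.36, 9.33 and 10.98 in HU pools. DU1 and DU2 were the highest of the 12 pools and HU2 the lowest. Its log2 fold change was 0.71 ± 0.39 (SE, adjusted p = 0.326) in DU vs. HU, the highest of the 43 genes although it did not pass the test, and -0.78 ± 0.39 (SE, adjusted p = 0.551) in DT vs. DU (limma). Ctss, a cathepsin that degrades the invariant chain, had 8.11, 8.40 and 8.64 in DT, 8.93, 8.95 and 8.12 in DU, 8.51, 8.43 and 8.38 in HT and 8.32, 7.94 and 8.96 in HU pools. Cd68, a lysosomal protein of macrophages, had 6.86, 7.36 and 7.42 in DT, 7.30, 7.32 and 6.96 in DU, 7.59, 7.29 and 7.12 in HT and 7.43, 7.40 and 7.38 in HU pools. For Ctss the pools of lot 1 other than DT1 and DT2 (DU1, DU2 and HU3) were the highest of the 12, whereas for Cd68 the DU pools were below the HU pools. The other myeloid genes, Cd14, Itgam, Csf1r and Aif1, differed between -0.25 (Cd14) and 0.13 (Aif1) in DT vs. DU.

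The 4 Fc receptors and adaptors had a median log2 fold change of -0.21 in DT vs. DU, with 4 of 4 below 0. Fcer1g, the gamma chain of Fc receptors, had 7.38, 8.18 and 8.71 in DT, 8.44, 8.48 and 8.25 in DU, 8.41, 8.07 and 8.25 in HT and 8.10, 7.95 and 8.66 in HU pools. Tyrobp, the adaptor DAP12 of myeloid and NK cells, had 6.69, 7.02 and 7.04 in DT, 7.15, 7.17 and 6.76 in DU, 7.26, 7.05 and 7.11 in HT and 6.88, 6.67 and 7.23 in HU pools. Fcgr2b, the inhibitory IgG receptor, had 4.84, 4.43 and 4.75 in DT, 4.92, 5.28 and 4.86 in DU, 4.97, 4.95 and 4.90 in HT and 4.80, 4.76 and 5.03 in HU pools. Fcgr2b was 1 of 2 genes whose DT pools all lay below the DU pools, with -0.35 ± 0.13 (SE, adjusted p = 0.344) by limma. This pattern was shown by 6.28% of all probe sets. The mean level of Fcgr2b over the 12 arrays was low, 4.87, at percentile 12.3 of all probe sets. In none of the 43 genes did all DT pools lie above the DU pools, as they did for 7.58% of all probe sets. Fcgr3a, an activating IgG receptor, differed by -0.06 ± 0.12 (SE, adjusted p = 0.939) in the same comparison.

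Of the chemokines, Ccl2 was the other gene with separated pools, and its mean level was also low, 4.83, at percentile 11.8 of all probe sets. Ccl2, which attracts monocytes, had 4.68, 4.78 and 4.74 in DT, 4.87, 5.01 and 5.11 in DU, 4.76, 4.80 and 5.11 in HT and 4.77, 4.68 and 4.69 in HU pools. For Ccl2 the log2 fold change was -0.27 ± 0.10 (SE, adjusted p = 0.339) in DT vs. DU, 0.29 ± 0.10 (SE, adjusted p = 0.125) in DU vs. HU (limma), and DT vs. HU gave 0.02. In DU vs. HU it was the only gene of the 43 whose pools were all higher, against 12.5% of all probe sets, and its interaction had the smallest adjusted p of the 43 genes, at -0.44 ± 0.14 (SE, adjusted p = 0.319, limma). Ccl5, a chemokine of T cells and NK cells, had 7.22, 7.25 and 7.52 in DT, 7.48, 7.45 and 7.29 in DU, 7.30, 7.06 and 7.44 in HT and 7.40, 7.20 and 7.05 in HU pools. Cxcr4, the receptor of Cxcl12, had 6.85, 7.09 and 7.29 in DT, 7.11, 7.08 and 6.57 in DU, 7.32, 7.22 and 7.27 in HT and 7.14, 6.94 and 7.80 in HU pools. For both, the DT pools overlapped with the DU pools and with the HU pools.

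T cell genes lay close to 0 in DT vs. DU. Cd3e, a chain of the T cell receptor complex, had 4.67, 4.70 and 5.35 in DT, 5.06, 4.79 and 4.94 in DU, 5.13, 5.16 and 5.12 in HT and 5.12, 4.93 and 5.72 in HU pools. Cd3g, another chain of it, had 7.38, 7.67 and 8.16 in DT, 8.03, 7.72 and 7.65 in DU, 8.13, 7.94 and 7.59 in HT and 7.90, 7.52 and 8.29 in HU pools. Cd8a, the coreceptor for MHC class I, had 5.65, 5.75 and 5.69 in DT, 5.83, 5.71 and 5.62 in DU, 6.13, 5.88 and 5.74 in HT and 6.06, 6.03 and 5.62 in HU pools. For Cd3e and Cd3g, HU3 was the highest pool and DT1 the lowest, as for Coro1a, Cd48 and Arhgdib, but for Cd8a HU3 was the lowest and HT1 the highest. The median of the 5 T cell genes was -0.03 in DT vs. DU, -0.13 for DT1 and DT2 minus DU1 and 0.23 for DT3 minus DU3. Cd2, an adhesion receptor, and Cd4, the coreceptor for MHC class II, differed by -0.07 ± 0.10 (SE, adjusted p = 0.892) and 0.08 ± 0.09 (SE, adjusted p = 0.862) by limma. In HT vs. HU, the 3 HT pools of Cd4 were above the 3 HU pools, by 0.22 ± 0.09 (SE, adjusted p = 0.871) in the limma fit, 1 gene of 43 against 5.74% of all probe sets.

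Over the 43 genes together, the median log2 fold change in DT vs. DU was -0.15, with 32 genes below 0, and that of all probe sets was 0.00. Without DT1 it was 0.00 and without DT3 it was -0.30. In DT vs. HU the median was -0.19, with 35 genes below 0, from -1.13 for Cd74 to 0.24 for Cd4. Blocking on scan day gave a median of 0.10 with 17 of 43 genes below 0, but DT and HU pools shared no scan day. That value adds DT3 minus HT3 to HT1 and HT2 minus HU3, and DT1 and DT2 do not enter it. On all arrays 2 genes, Vav1 and Lcp2, had all DT pools below the HU pools, against 11.4% of all probe sets. All DT pools lay above the HU pools for 0 genes, against 9.62%. In DU vs. HU the median was -0.01 with 23 genes below 0, from -0.45 for Arhgdib to 0.71 for Lyz2. Blocking on scan day gave 0.44 with 6 below 0, but DU and HU pools shared no scan day either. That value adds up DU1 minus DT1 and DT2, DT3 minus HT3, and HT1 and HT2 minus HU3. Within chip lot 1, DU1 and DU2 minus HU3 had a median of -0.07, with 27 of 43 genes below 0. In HT vs. HU the median on all arrays was 0.01 with 21 below 0. Within scan day 3, the mean of HT1 and HT2 differed from HU3 by a median of -0.16, with 31 of 43 genes below 0. Over all probe sets that median was 0.00. The HU arm is then 1 pool, HU3, the highest HU pool for 32 of 43 genes. Vav1 was the only gene with all HT pools below the HU pools (5.83% of all probe sets). DT vs. DU shares the DT pools with DT vs. HU and the DU pools with DU vs. HU, and the comparisons with HU share the HU pools, so these medians are not independent.

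With the scan day as a block, which for DT vs. DU compares DT1 and DT2 with DU1 alone, 7 of 43 genes passed downwards, against 0.813% of all probe sets. Since the DU arm is then 1 pool, its spread is assumed to be that of the same-day pools of the other groups (DT1 and DT2, HT1 and HT2, HU1 and HU2). The 7 genes were Cd53, Coro1a, C1qa, C1qc, B2m, RT1-Ba and RT1-Da, and the log2 fold change of RT1-Da was -1.84 ± 0.25 (SE, adjusted p = 0.0085, limma), with 3 residual degrees of freedom. Without the 3 arrays of chip lot 3, 6 genes were lower in DT vs. DU (0.964% of all probe sets): Cd14, C1qa, C1qc, B2m, RT1-Ba and RT1-Da. Those arrays include DT3, the highest DT pool for 35 of 43 genes, and DU3, the lowest DU pool for 36. Leaving out either lowers DT vs. DU for most of the 43 genes by construction, so the 6 calls are no separate evidence of a difference. RT1-Ba had 8.70, 8.59 and 9.39 in DT, 9.47, 9.69 and 9.14 in DU, 9.21, 9.19 and 9.34 in HT and 9.37, 9.03 and 9.74 in HU pools. Cd53 had 6.24, 6.35 and 7.13 in DT, 7.21, 7.14 and 6.95 in DU, 6.87, 6.61 and 6.73 in HT and 6.64, 6.34 and 7.17 in HU pools. Cd14, a receptor for bacterial lipopolysaccharide, had 6.54, 6.68 and 6.87 in DT, 7.03, 7.08 and 6.74 in DU, 6.70, 6.66 and 6.66 in HT and 6.87, 6.70 and 6.73 in HU pools. For these 3 genes DT1 and DT2 lay below all 3 DU pools and DT3 among them. In the same fit 4 genes, Cd74, RT1-Ba, RT1-Bb and RT1-Da, were lower in DT vs. HU (1.52% of all), and in DU vs. HU C1qc was higher (2.05%) and Vav1 lower (2.17%). C1qc was also lower in the interaction, at -1.32 (adjusted p = 0.0112, limma; 0.24% of all probe sets). With the chip lot as a block, which keeps DT3, 0 of 43 genes passed in any contrast. In DT vs. DU 5 genes had an unadjusted p under 0.05 by limma, against 11.4% of all probe sets.

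DT3 was also the highest of the DT pools in the second probe sets of B2m, RT1-Ba and RT1-Bb. The second probe set of B2m had 7.04, 7.37 and 8.59 in DT1, DT2 and DT3, that of RT1-Ba 6.45, 7.27 and 8.22 and that of RT1-Bb 5.40, 5.34 and 6.41. Between DT3 and the mean of DT1 and DT2, the other probe sets of Cxcr4 differed by 0.83 and 0.29, that of Tap1 by 0.46 and that of Aif1 by 0.40. Their mean log2 levels were 5.06, 6.51, 6.46 and 4.76 in that order. The other probe sets of Ptprc, Lcp2 and RT1-Db1 differed by 0.06 or less, at mean log2 levels of 4.76, 4.88 and 3.98. The lowest deposited value was 3.44. In all, 9 of the 43 genes had more than 1 probe set. The class II genes belong to a family of similar sequences, and cross-hybridization between them was not tested.

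Median deviations of some other cell type lists varied across the pools with these genes, and those of other lists varied less. The 9 stroma genes, such as collagens and decorin, had a median deviation of -0.61 in DT1, -0.57 in DT2 and 0.20 in DT3, against 0.25, 0.08 and -0.06 in DU, 0.24, 0.15 and -0.08 in HT and 0.09, -0.01 and 0.61 in HU pools. Their mean log2 level ran from 7.56 to 8.42 in DT, 8.22 to 8.55 in DU, 8.10 to 8.48 in HT and 8.19 to 8.77 in HU pools, and 2 of the 9, Col1a2 (-0.96, adjusted p = 0.0385) and Col3a1 (-1.43, adjusted p = 0.0188), fell in DT vs. HU by limma. In DT3 minus DU3, however, the stroma median was 0.01, against 0.77 for MHC class II. The endocrine list of 8 genes, insulins among them, was also higher in DT3, with a median deviation of -0.25, -0.70 and 0.17 in the DT pools, and its median in DT3 minus DU3 was 1.03. Hbb, of red blood cells, had 10.19, 9.98 and 10.99 in DT, 10.60, 10.44 and 10.07 in DU, 11.67, 11.10 and 11.60 in HT and 11.21, 11.28 and 12.18 in HU pools. Cd79b, the only B cell gene of 12 listed that was measured, had 6.69, 6.57 and 7.17 in DT, 7.09, 6.91 and 6.78 in DU, 7.90, 7.24 and 7.36 in HT and 7.64, 7.21 and 7.65 in HU pools. The 4 measured of 6 endothelial genes had a median deviation of -0.21, -0.19 and 0.02 in the DT pools and 0.30 in HU3, and the 5 measured of 6 adipocyte genes had -0.12, -0.17 and -0.18 in the DT pools and 0.61 in HU3. The 5 measured of 7 duct genes had 0.41, -0.23 and 0.11 in the DT pools, with DT1 the highest of 12 for 4 of 5 (1298 of 15866 probe sets). The mean level by array was 3.98 to 4.09 for the 2 measured of 8 neutrophil genes, near the lowest deposited value of 3.44. It was 5.79 to 5.96 for the 9 measured of 10 mast cell genes. No stability of either list is read from the medians that follow. Over the 12 arrays the medians lay between -0.10 and 0.14 for 7 cytotoxic and natural killer genes. They lay between -0.05 and 0.06 for 2 neutrophil genes and between -0.08 and 0.07 for 9 mast cell genes. Those of the 12 acinar genes lay between -0.05 and 0.06, but their mean deviations in the DU pools were -0.25, -0.42 and -0.29, and Amy2a3, an amylase, had 13.17, 12.98 and 12.70 in DT, 8.59, 6.45 and 8.78 in DU, 13.02, 13.13 and 12.80 in HT and 13.20, 13.10 and 13.07 in HU pools. Most acinar genes lay close to the highest deposited value of 14.56, so that no stability is read from their median. No probe set was at 0. The 4 measured of 10 lymph node genes had a median deviation of -0.27, -0.31 and -0.08 in the DT pools and 0.42 in HU3. The part of other cell types in these differences was not tested.

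**Figure D5:**
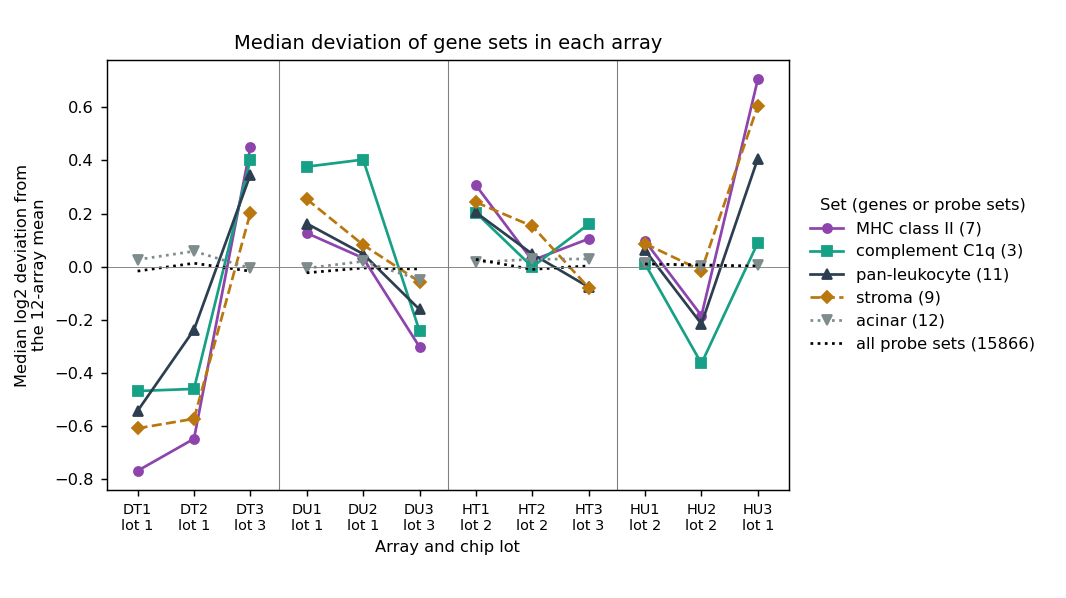
Median log2 deviation from the 12-array mean (y axis) of MHC class II, C1q and pan-leukocyte genes, of stroma and acinar markers and of all probe sets, in each array (x axis, with chip lot). In the DT pools MHC class II reads -0.77, -0.65 and 0.45 and stroma -0.61, -0.57 and 0.20. The median of the acinar genes stays within 0.06 of 0, but most of them lie close to the highest deposited value, so no stability is read from it.

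Related genes outside these 43, taken from lists of the same pathways, gave few calls. Of 29 other leukocyte genes, 0 passed an adjusted p of 0.05 in DT vs. DU or DU vs. HU (limma), the smallest being 0.0859 for Cd8b in DU vs. HU. The median log2 fold change of the 29 genes in DT vs. DU was -0.02. Their median deviation was -0.15 in DT1, 0.03 in DT2 and 0.09 in DT3. Of 20 interferon response genes, 0 passed in either comparison, the smallest being 0.116 for Rsad2 in DU vs. HU. Their median in DT vs. DU was -0.16, with Ifitm1, an antiviral membrane protein, at -0.93 (adjusted p = 0.181). Of 22 other antigen presentation genes, 1 rose in DT vs. DU and 1 fell in DU vs. HU, and of 28 chemokines, cytokines and adhesion genes, 1 fell in DT vs. DU. Over all probe sets, 1.12% passed in DT vs. DU and 3.2% in DU vs. HU. The medians in DT vs. DU were -0.05 for the 22 genes and 0.00 for the 28. Median deviations in DT1, DT2 and DT3 were -0.16, -0.17 and 0.00 for the 22 genes and -0.08, 0.02 and -0.06 for the 28. For the 20 interferon response genes they were -0.16, -0.01 and -0.03.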

How the data were processed

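Pools of pancreas RNA (3 rats a pool, 3 pools in each of 4 groups) were hybridized to 12 Affymetrix RAE230-A arrays. The deposited values are log2 intensities that the authors made by RMA (background correction, quantile normalization, summary over probes) in the affy package, version not given in the sources used here. Arrays have no read depth, and their number limits the precision. Array medians lay between 6.63 and 6.70.

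A mean per group was fitted to 15866 probe sets, 57 controls being left out, with limma 3.58.1 in R 4.3.3. A gene was called at a Benjamini-Hochberg adjusted p under 0.05, and the B-statistic used a prior proportion of 0.01. Scan day and chip lot came from the array records. Gene symbols came from the platform annotation (12783 probe sets with 1 symbol, 312 with several, 2771 with none). Alternatives were other scalings and filters, limma with trend and robust, blocks for chip lot, scan day or replicate number, and leaving out arrays. The genes, lists and tests were chosen with earlier results of these data known. Values on every array were given for the 3 genes per role with the largest range over the arrays, for any gene called in the fit on all arrays, and for Vav1, RT1-Ba, Cd53 and Cd14, chosen after their values were seen. Promoters came from RefSeq (GRCr8). Probe-level scans and protein sequences were not used here.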

Additional observations from a re-analysis of the deposited data

How the results depend on the processing

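The count of genes called was 0 of 43 in the 5 contrasts under quantile normalization, median centring, with trend and robust fitting, with the chip lot as a block and with the mean of all probe sets of a gene. It was also 0 by the B-statistic, 0 of 39 genes without the dimmest 25% of probe sets, and 0 of 43 with only the 6 arrays compared, a fit not made for the interaction, and the medians under these settings moved by less than the SD of the array medians, 0.218. With the scan day as a block, 7 genes were called in DT vs. DU, and the median log2 fold change was -0.42 in DT vs. DU, 0.10 in DT vs. HU and 0.44 in DU vs. HU. By the construction of that block, DT vs. DU then rests on DT1, DT2 and DU1. Neither DT nor DU pools shared a scan day with HU pools, so the blocked values against HU add up differences from several scan days. Without the arrays of chip lot 3, 6 genes were called in DT vs. DU, 4 in DT vs. HU, 2 in DU vs. HU and 1 in the interaction. The median was then -0.38 in DT vs. DU and -0.43 in the interaction. That setting leaves out DT3 and DU3, the highest DT and the lowest DU pool for most genes, which lowers DT vs. DU by construction. When each array was left out in turn, 0 to 1 gene was called in DT vs. DU and 0 to 3 in DT vs. HU, the higher counts without DT3. The medians then ran from -0.30 (without DT3) to 0.00 (without DT1) in DT vs. DU, -0.36 to -0.02 in DT vs. HU, -0.11 to 0.09 in DU vs. HU, -0.13 to 0.16 in HT vs. HU and -0.26 to -0.03 in the interaction. The cause of these moves was not tested.

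The labels number the pools 1 to 3 in each group. The deviations of same-numbered pools had correlations of 0.05, 0.10 and 0.02 in DT vs. DU, 0.00, 0.31 and 0.31 in DT vs. HU, -0.15, 0.02 and -0.19 in DU vs. HU and 0.05, -0.29 and -0.21 in HT vs. HU. All 3 pools of DT vs. HU correlated best with their own number, but not every pair was above 0.1, so the number was not taken as a pairing. With the replicate block, 0 of 43 genes were called in any contrast, and the median in DT vs. DU was -0.15. The 3 pools per group limit the precision, and a difference under about 0.42 lay within the 95% interval of the median gene.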

Other observations

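Lgmn, Ctsl and Cxcl9 passed the test among the related genes, and Kit among mast cell genes, and they are named because they passed. Over all probe sets, 1.12% passed in DT vs. DU, 1.32% in DT vs. HU and 3.2% in DU vs. HU. Cxcl9, a chemokine induced by interferon gamma, had 6.87, 6.62 and 6.29 in DT, 7.51, 7.40 and 7.13 in DU, 7.21, 7.17 and 7.03 in HT and 7.17, 7.14 and 7.24 in HU pools. All DT pools were below all other pools, and DT3, the highest DT pool for 35 of the 43 genes, was the lowest for Cxcl9. Its log2 fold change by limma was -0.76 in DT vs. DU (adjusted p = 0.0108) and -0.59 in DT vs. HU (adjusted p = 0.0467). All DT pools lay below the DU pools for 6.28% of all probe sets and below the HU pools for 11.4%. Lgmn, the endosomal protease legumain, which cleaves antigens, had 9.13, 9.02 and 8.92 in DT, 8.47, 8.69 and 8.46 in DU, 8.30, 8.37 and 8.30 in HT and 8.48, 8.46 and 8.31 in HU pools. It rose by 0.49 in DT vs. DU (adjusted p = 0.0159) and by 0.61 in DT vs. HU (adjusted p = 0.00584, limma), in all 3 DT pools against all 3 DU and all 3 HU pools. All DT pools lay above the DU pools for 7.58% of all probe sets and above the HU pools for 9.62%. Ctsl, the protease cathepsin L, had 11.32, 10.87 and 10.94 in DT, 10.88, 10.81 and 10.74 in DU, 11.06, 11.19 and 10.87 in HT and 11.27, 11.32 and 11.44 in HU pools. It fell by 0.53 in DU vs. HU (adjusted p = 0.0257, limma). Kit, the receptor of stem cell factor, had 5.11, 5.19 and 5.26 in DT, 5.28, 5.39 and 5.54 in DU, 5.27, 5.25 and 5.33 in HT and 5.13, 5.06 and 5.03 in HU pools. It rose by 0.33 in DU vs. HU (adjusted p = 0.0474, limma), as 1 of 9 measured mast cell genes. The median log2 fold change of those 9 genes in DU vs. HU was -0.11, opposite in sign to Kit.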
